A study of Mus musculus with 3 samples.

Results

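The genes of the MHC class II pathway were followed in single cells of B16-F10 tumors: Cd74, H2-Aa, H2-Ab1, H2-Eb1, H2-DMa, H2-DMb1, H2-DMb2 and Ciita. They were chosen by symbol, and each of these 8 matched exactly 1 of the 32285 genes in the files. B16-F10 is a melanoma cell line of C57BL/6 mice, and the study asked how loss of Mib2, a ubiquitin ligase, in the tumor cells alters the tumor and its immune cells. The library labelled shMib2 replicate 1 and the library labelled shMib2 replicate 2 came from B16-F10 tumors with different shRNAs against Mib2, and the library labelled shCtrl from B16-F10 tumors with a control shRNA. Each of the 3 libraries was a pool of tumors from 3 C57BL/6J mice of 6 to 8 weeks, dissociated with enzymes and treated to lyse red blood cells, so that differences between mice within a group could not be measured. Values are UMIs, which are tags that mark single RNA molecules, or CPM, the UMIs of a gene per 1000000 UMIs of the cells named.

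Class II molecules carry peptides of engulfed proteins to the cell surface, where CD4+ T cells read them. Dendritic cells and B cells make them without further stimulus, whereas most other cells, melanoma cells among them, make them after interferon gamma. H2-Aa and H2-Ab1 encode the alpha and beta chains of I-A, the class II molecule that C57BL/6 mice display. H2-Eb1 encodes the beta chain of I-E, whose alpha chain this strain lacks. Cd74, the invariant chain, fills the groove of new class II molecules, and the H2-DM dimer of H2-DMa with an H2-DMb chain exchanges its remnant for peptide. Ciita encodes the transactivator that, held at the promoters by the factors RFX, CREB and NF-Y on the X and Y boxes, switches the other genes on. Interferon gamma induces Ciita, in part through IRF1.

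The bases just before the start are shown for 3 genes, because the promoter boxes are what these genes are known to share. Capitals mark the Y box core GATTGG and the part TGATG of the X box, searched on both strands in the 140 bases before the start; the sequences are those of RefSeq on GRCm38.p6, written 5′ to 3′ along the gene. H2-Aa and H2-Eb1 stand for genes with large differences between the labels and H2-DMb2 for a gene with none past the test.
H2-Aa, chr17:34287824-34287963, minus strand: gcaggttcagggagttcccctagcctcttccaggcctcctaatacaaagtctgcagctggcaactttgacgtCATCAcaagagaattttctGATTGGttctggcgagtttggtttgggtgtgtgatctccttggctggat
H2-Eb1, chr17:34305727-34305866, plus strand: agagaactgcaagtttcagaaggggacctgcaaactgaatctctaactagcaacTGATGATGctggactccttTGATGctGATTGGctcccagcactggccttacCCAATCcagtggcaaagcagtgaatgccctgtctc
H2-DMb2, chr17:34145109-34145235, plus strand, the part outside annotated exons: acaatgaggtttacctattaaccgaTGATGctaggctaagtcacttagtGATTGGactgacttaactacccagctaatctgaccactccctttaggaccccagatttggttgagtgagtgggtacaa
In H2-Aa the Y box core began at -49 from the start and the X box part, on the other strand, at -68. In H2-Eb1 a Y box core began at -60 after X box parts at -86, -83 and -67, and another Y box core lay on the other strand at -35. H2-DMb2 had its Y box core at -91 and its X box part at -115. H2-DMb1, whose motifs lie in an annotated exon, had a Y box core at -62 and X box parts at -89 and -86. Neither motif was found in the 2 windows of H2-DMa, whose parts outside exons were 34122692 to 34122821 and 34125378 to 34125517. Both lie inside the span of the gene given below, so the bases before that span were not searched. The window of H2-DMb2 also lies inside the span of its gene. Windows of 5 of the 8 genes were counted, and 4 of those 5 held both motifs. Cd74 was left out of this count, and neither motif was recorded for it. No window of H2-Ab1 or Ciita was found, so the count does not cover them either. Of all 32851 promoter windows of this length, 10.5% held the Y box core, 21.3% the X box part and 2.13% both. A match is a stretch of letters and was not tested as a binding site.

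In the annotation GENCODE vM21 of GRCm38 (mm10), 6 of the genes lie in the H2 complex on chromosome 17. H2-DMa spans 34119541 to 34139101, H2-DMb2 34143307 to 34151555, H2-DMb1 34153072 to 34160230, H2-Ab1 34257689 to 34269419 and H2-Eb1 34305867 to 34316674, all on the plus strand, and H2-Aa spans 34282744 to 34287823 on the minus strand. Ciita lies on chromosome 16 from 10480059 to 10528418 and Cd74 on chromosome 18 from 60803848 to 60812652. H2-DMb1 and H2-DMb2 are near-identical neighbors, and the counting could split or lose reads between them, so the values of each are uncertain. H2-DMa overlaps Brd2 on the other strand and 2 antisense genes of the files, H2-Eb1 overlaps the antisense gene Gm20513, and Ciita overlaps Dexi on the other strand.

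Melanoma cells were taken as barcodes with at least 5000 UMIs of which Dct and Pmel, genes of melanin synthesis, made up at least 0.5%. They numbered 6554 and 3933 in the libraries labelled shMib2 (replicates 1 and 2, in this order throughout) and 8100 in the library labelled shCtrl, at medians of 25479 and 44530 against 27097 UMIs. All 7 melanoma markers had UMIs in each library, with a summed level of 18072 and 19231 against 18724 CPM. Mib2 RNA was not lower under its shRNAs: it had 3.12 and 2.67 CPM in melanoma cells of the libraries labelled shMib2 and 2.49 CPM in the library labelled shCtrl (log2 fold change 0.17, edgeR adjusted p = 0.522), so every direction given here is between labels. The other cells were clustered without the class II genes and named by markers, as "B cell-like" for instance. The labels give skin as the tissue, but 0 cells fell in a keratinocyte-like class. The libraries shared 20 to 30 cell barcodes by pairs. With 1 library labelled shCtrl, the p-values rest on the spread between the libraries labelled shMib2, pooled in part over genes. The spread between libraries labelled shCtrl could not be measured and enters no p-value.

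Class II transcripts were higher in melanoma cells of both libraries labelled shMib2 than in those of the library labelled shCtrl, for 6 of the 8 genes tested. Of all 16196 genes tested, 1.60% were called higher, and the median log2 fold change of the 8 genes was 3.41 against 0.01 for all genes. The libraries labelled shMib2 differed little from each other for any of the 6, while the library labelled shCtrl lay apart. Cd74, the invariant chain, had 36.2 CPM (exact Poisson 95% interval 35.3 to 37.1) and 35.6 CPM (34.7 to 36.5) in the libraries labelled shMib2, against 3.08 CPM (2.86 to 3.31) in the library labelled shCtrl. Its log2 fold change was 3.49 (SE 0.05, Benjamini-Hochberg adjusted p = 0.00253 by the quasi-likelihood test of edgeR, which gave all adjusted p-values below unless DESeq2 is named). Among the chains that hold the peptide, H2-Aa had 10.2 and 10.5 CPM in the libraries labelled shMib2 against 0.645 CPM in the library labelled shCtrl (log2 fold change 3.95, SE 0.10, edgeR adjusted p = 0.00407). H2-Ab1 had 7.88 and 8.40 CPM against 0.709 CPM (3.47, SE 0.11, edgeR adjusted p = 0.00703). H2-Eb1 had 7.03 and 7.59 CPM against 0.692 CPM (3.35, SE 0.12, edgeR adjusted p = 0.00887). These 4 genes thus differed by similar factors, and in none did a library labelled shMib2 overlap the library labelled shCtrl.

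The genes of the peptide exchange factor moved less. H2-DMa had 4.95 CPM in each library labelled shMib2 and 1.62 CPM in the library labelled shCtrl (log2 fold change 1.56, SE 0.09, edgeR adjusted p = 0.0172). H2-DMb1 had 16.9 and 15.5 CPM against 12.1 CPM, a difference that did not pass (0.36, SE 0.05, edgeR adjusted p = 0.0799, but 0.0234 by DESeq2). It was the most evenly spread of the genes, with UMIs in 29.1% and 37.7% against 26.4% of melanoma cells. H2-DMb2 was rare, with 26 and 29 UMIs in all melanoma cells of the libraries labelled shMib2 and 16 in those of the library labelled shCtrl (log2 fold change 1.11, edgeR adjusted p = 0.252).

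Ciita, the transactivator, was rare and followed the genes it is known to control. It had 98 and 97 UMIs in the libraries labelled shMib2 (0.546 and 0.526 CPM) and 8 UMIs in the library labelled shCtrl (0.0337 CPM, exact Poisson 95% interval 0.0146 to 0.0665). The log2 fold change of 3.91 (SE 0.32) passed with an edgeR adjusted p of 0.0259. That call rests on few UMIs, and over 13 alternatives the adjusted p of Ciita ran from 8.98e-06 to 0.369. It was lost with a limit of 10% on mitochondrial UMIs (0.0513), with predicted doublets left out (0.0754), with every cell that held a leukocyte or stromal marker left out (0.125), and with cells thinned to 5000 UMIs (0.162). With no filter on low counts none of the 8 genes, and 0 of all 22204 genes, passed (edgeR adjusted p = 0.369 for each of the 6), although all 8 had an unadjusted p under 0.05 in the fit with the filter.

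**Figure D1:**
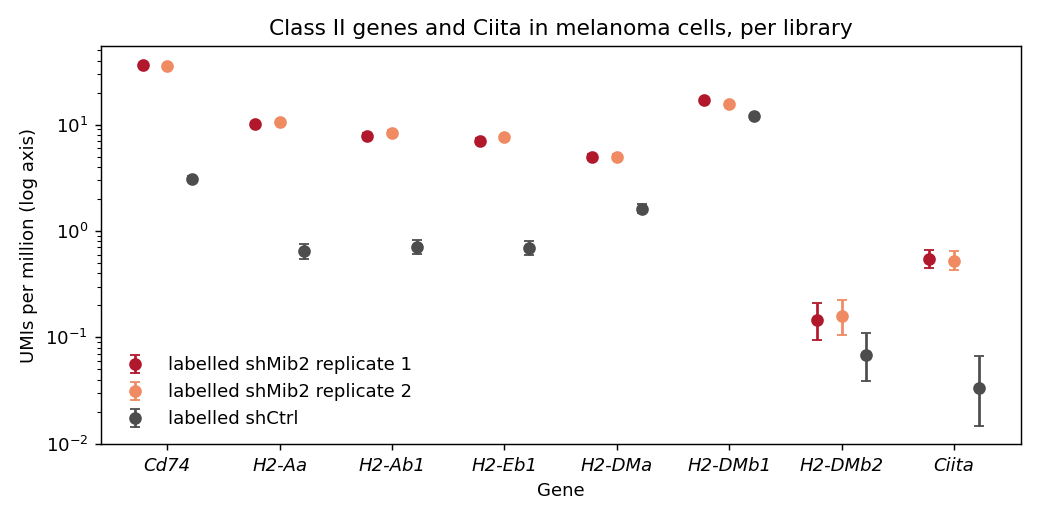
CPM (log axis) of each class II gene and Ciita in melanoma cells, 1 point per library with the exact Poisson 95% interval, which covers counting error only. For Cd74, H2-Aa, H2-Ab1, H2-Eb1, H2-DMa and Ciita the libraries labelled shMib2 lie together above the library labelled shCtrl, whereas for H2-DMb1 the 3 points lie between 12.1 and 16.9.

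Over all barcodes of a library, melanoma cells or not, Cd74 had 71.1 and 109 CPM against 8.17 CPM; in such sums more cells of a type and more RNA per cell cannot be told apart. The melanoma cells held 47.9% and 29.6% of the Cd74 UMIs of the libraries labelled shMib2 and 36.6% of those of the library labelled shCtrl. Of H2-DMb1 they held 86.6% and 78.5% against 97.0%, and of all UMIs 93.9% and 90.7% against 97.2%, so that even H2-DMb1 was not more frequent per UMI in melanoma cells than in the other cells.

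Within the tumor the transcripts were concentrated in a minority of melanoma cells. At least 3 of the 8 genes, called several below, had UMIs in 508 cells (7.75%, Wilson 95% interval 7.13 to 8.42) and 403 cells (10.2%, 9.34 to 11.2) of the libraries labelled shMib2, against 73 cells (0.901%, 0.717 to 1.13) of the library labelled shCtrl. Averaged over the libraries labelled shMib2, the share exceeded the one under shCtrl by a factor of 9.98 (8.60 and 11.4 for each library alone). This factor was not tested; with 3 splits of 3 libraries an exact permutation test cannot go below 0.333. At 5000 UMIs from every cell the shares were 2.64% and 2.62% against 0.247%, so the greater depth of replicate 2 did not carry into them. With at least 2 genes the factor was 5.51 and with at least 4 genes 12.1, and without counting H2-DMb1 several genes were held by 6.38% and 8.14% against 0.654% of cells. Many of these cells held more than 3 genes: 5 genes were held by 97 and 88 cells of the libraries labelled shMib2 and 15 of the library labelled shCtrl, 6 genes by 121 and 92 against 14, and 7 genes by 41 and 37 against 2. All 8 genes occurred together in 1 and 4 cells of the libraries labelled shMib2 and in 0 of 8100 cells of the library labelled shCtrl.

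**Figure D2:**
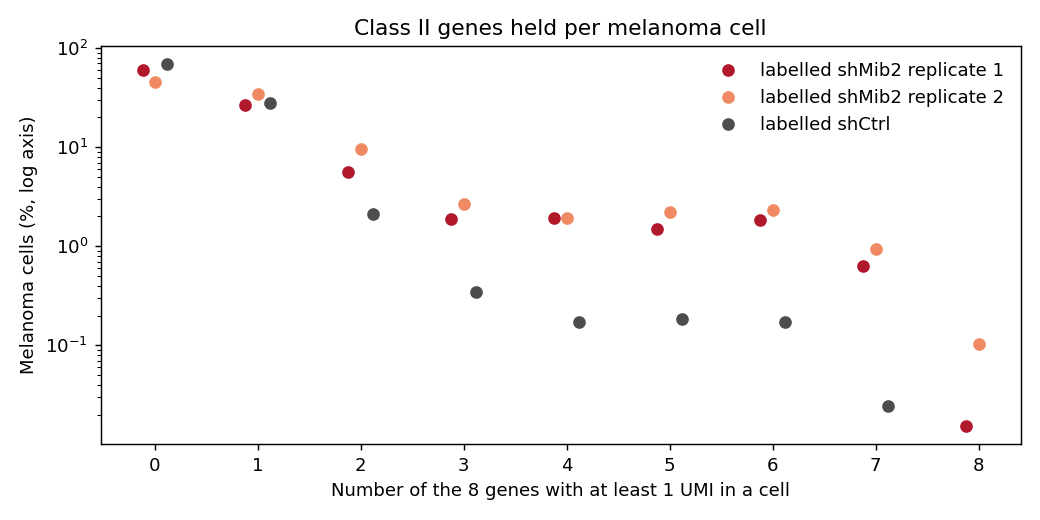
Share of melanoma cells (log axis, %) by the number of the 8 genes with at least 1 UMI in the cell, 1 point per library. From 3 genes on, each library labelled shMib2 lies above the library labelled shCtrl. The libraries labelled shMib2 lie between 1.48% and 2.70% from 3 to 6 genes and the library labelled shCtrl between 0.173% and 0.346%; the point of the library labelled shCtrl at 8 genes is 0 and is not drawn.

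The cells with several genes held most of the class II UMIs of the melanoma cells. They contained 88.6% and 92.4% of the Cd74 UMIs in the libraries labelled shMib2 and 67.4% in the library labelled shCtrl, and 91.1% and 93.8% against 81.7% of those of H2-Aa. Of the Ciita UMIs they contained 93.9% and 84.5% against 50.0%, the last being 4 of 8 UMIs. H2-DMb1 differed, with 36.6% and 41.7% against 4.55%. Grouped by the other 7 genes alone, a grouping chosen after seeing the data, H2-DMb1 had 71.1 and 58.0 against 51.9 CPM in cells with at least 3 of the 7. In cells with none of the 7 it had 11.4 and 10.4 against 11.6 CPM, and so was not higher under the label shMib2.

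Per cell, the sum of the 8 genes in these cells ran from 3 to 270 UMIs with a median of 14 in shMib2 replicate 1, from 3 to 296 with a median of 16 in shMib2 replicate 2, and from 3 to 91 with a median of 9 in shCtrl. Cd74 was found in 93.5% and 94.0% against 89.0% of them, at 349 and 274 against 178 CPM. H2-Aa stood at 101 and 82.3 against 45.1 CPM, H2-Ab1 at 77.2 and 62.4 against 44.4 CPM and H2-Eb1 at 70.7 and 57.2 against 46.5 CPM. In the rare cells of the library labelled shCtrl the transcripts were therefore less abundant as well, except H2-DMa (39.8 and 32.4 against 38.6 CPM). These levels are a description, because the cells were chosen by the same UMIs.

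Pairs of the genes met in the same cell more often than the product of their shares. Cd74 and H2-Aa were found together in 411 and 309 cells of the libraries labelled shMib2, where the product gives 74.7 and 81.9, and in 46 cells of the library labelled shCtrl, where it gives 1.87. Cd74 and H2-DMb1 were closer to the product, at 1.97 and 1.58 times against 1.67 times. Deep cells show more of every gene, so these ratios are no measure of independence. Ciita UMIs were found in 71 and 61 cells against 7, of which 67 and 51 against 3 were cells with several genes. Conversely, 93.1% and 93.2% against 98.6% of the cells with Cd74 showed no Ciita UMI.

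Isolated UMIs, a single UMI of all 8 genes in a cell, were found in 22.0% and 26.5% against 21.6% of melanoma cells. Most of them were H2-DMb1, namely 64.8% and 52.9% against 82.9%, and Cd74 made up 13.2% and 16.5% against 3.48%. T cell-like and NK cell-like cells, which should lack class II genes, gave the background for Cd74 and for several genes. No such background is given for H2-DMb1, which had 11 and 26 against 0 UMIs in T cell-like cells. Melanoma cells held 86.6% and 78.5% against 97.0% of its UMIs, and 93.9% and 90.7% against 97.2% of all UMIs. A Cd74 UMI was found in 8.98% and 10.5% against 7.50% of T cell-like cells (medians of 1489 and 2653 against 1502 UMIs) and in 3.68% and 6.00% against 6.82% of NK cell-like cells. In melanoma cells the share was 13.6% and 19.0% in the libraries labelled shMib2, above those shares but at far greater depth, and 2.63% in the library labelled shCtrl, below them. Several genes were found in 1.62% and 1.96% against 1.25% of T cell-like cells. With all cells thinned to 1000 UMIs, which left out the shallower T cell-like cells and kept 449 and 796 against 66, several genes were found in 0.275% and 0.356% against 0.0247% of melanoma cells and in 0.668% and 0.879% of T cell-like cells, against 0 of 66 in the library labelled shCtrl. At 1000 UMIs melanoma cells of the libraries labelled shMib2 as a whole were not above the T cell-like cells. The library labelled shCtrl has too few T cell-like cells for this comparison. With all UMIs, and at far greater depth, several genes were found in 7.75% and 10.2% of melanoma cells, above the T cell-like shares. Thinning took most UMIs from melanoma cells (medians of 25479 and 44530) and fewer from T cell-like cells. The thinned shares therefore cannot show whether melanoma cells as a whole exceed the background. A single UMI in a melanoma cell is not read as expression of the gene in that cell.

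The cells with several genes differed from other melanoma cells in genes that were not used to choose them. They were somewhat deeper, with medians of 29940 and 50728 against 33742 UMIs, against 24493, 42386 and 26349 in cells with none. Their pigment genes were slightly lower, with medians of 1.08% and 1.19% against 1.15% Dct and Pmel, where cells with none had 1.20% and 1.33% against 1.27%. The summed level of 20 genes induced by interferon gamma had a median of 26.6 and 22.5 UMIs per 10000 in cells with several genes of the libraries labelled shMib2, and of 23.4 in those of the library labelled shCtrl. Cells with an isolated UMI had 4.01 and 3.79 against 3.26, and cells with none had 3.97 and 3.63 against 3.29. Cells with an isolated UMI thus resembled cells with none, in all 3 libraries. The converse is a description only. At or above the median of the cells with several genes lay 385 and 300 cells of the libraries labelled shMib2. Among these, 66.0% and 67.3% had several genes themselves and 13.2% and 10.0% had none. Of 97 such cells of the library labelled shCtrl, 38.1% had several and 32.0% none. The cut was set by the cells with several genes of each library. These shares therefore also follow how frequent such cells were there. Among all cells with none, 1.30% and 1.67% against 0.555% reached the cut.

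**Figure D3:**
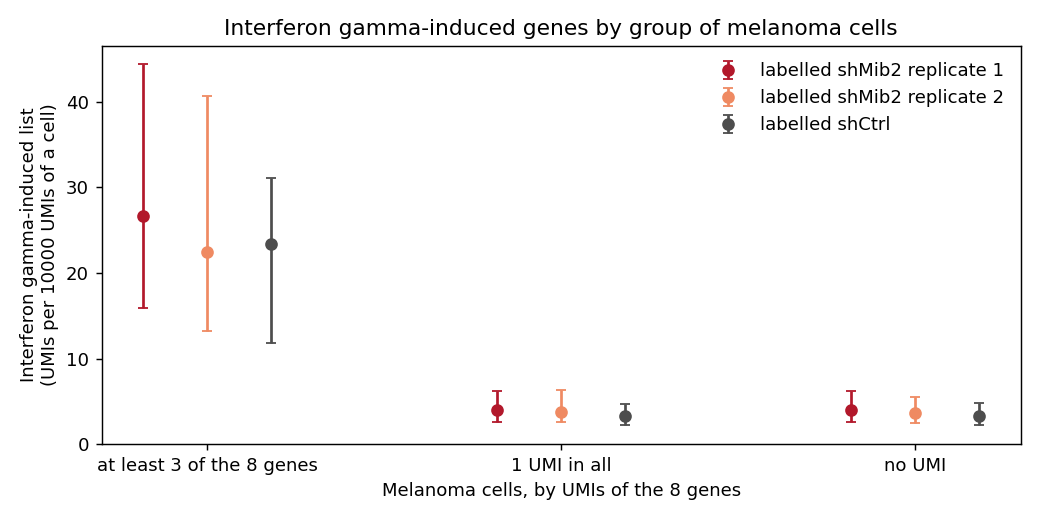
UMIs of 20 interferon gamma-induced genes per 10000 UMIs of a cell, by group of melanoma cells and library; points are medians over cells and bars run between the quartiles. Cells with at least 3 of the 8 genes have medians of 26.6, 22.5 and 23.4, and cells with 1 UMI in all lie at the level of cells with no UMI.

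Gene by gene, 106 of 9852 genes with enough UMIs (1.08%) were at least 2-fold higher in cells with several genes than in cells with none in every library, and 0 (0%) were at most that much lower in every library. All 18 of the induced genes that could be measured were among the 106, at median ratios of 14.2 and 14.7 in the libraries labelled shMib2 and 20.8 in the library labelled shCtrl. The 12 genes with the largest smallest ratio were Gbp4, Psmb8, Gm12185, Cxcl9, Gbp2, Gm4951, Gbp6, Psmb9, Iigp1, Igkc, Zbp1 and Tgtp1. Gbp4, a guanylate-binding protein, had 63.3 and 65.5 CPM in cells with several genes of the libraries labelled shMib2, against 0.629 and 0.812 CPM in cells with none. In the library labelled shCtrl it had 46.2 CPM in cells with several genes against 0.164 CPM in cells with none. Psmb8, a subunit of the immunoproteasome, had 153 and 132 against 3.22 and 2.30 CPM in the libraries labelled shMib2, and 69.3 against 0.411 CPM in the library labelled shCtrl. Igkc, the kappa light chain of antibodies, is a B cell transcript and stood at 4.85 and 7.63 against 0.177 and 0.317 CPM, and at 7.58 against 0.0949 CPM in the library labelled shCtrl.

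The interferon gamma receptor and its kinases did not share this pattern. Of 9 signaling genes measured, 3 were at least 2-fold higher in every library. Among them Irf1 was 6.54 and 5.27 against 5.84 times higher in cells with several genes, and Irf8 7.77 and 6.91 against 26.3 times. Ifngr1, a receptor chain, stood at 1.02 and 0.935 against 0.960 times and Jak1 at 0.981 and 0.982 against 0.873 times. The factors that hold Ciita at the promoters were level too, with median ratios over 7 genes of 0.950 and 1.02 in the libraries labelled shMib2 and 0.923 in the library labelled shCtrl. Nlrc5, the transactivator of MHC class I genes, was 7.28 and 8.53 against 19.2 times higher, and Cd274, which encodes PD-L1, 3.59 and 5.98 against 3.34 times.

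**Figure D4:**
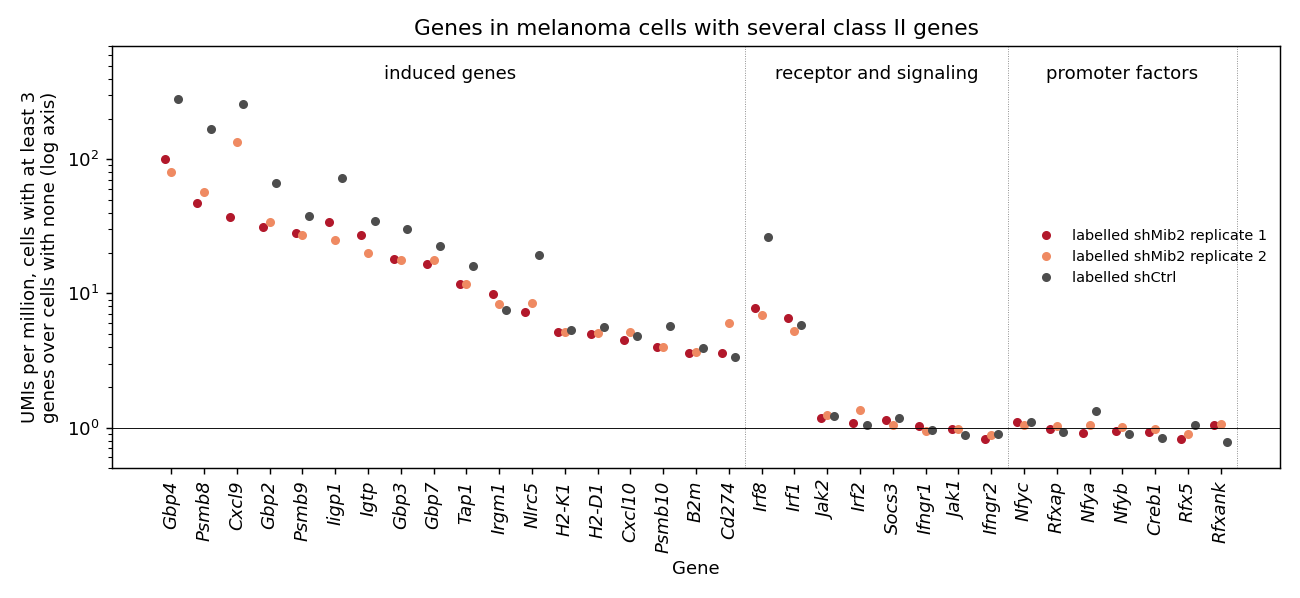
Ratio of CPM in melanoma cells with at least 3 of the 8 genes to those with none (log axis), for genes of the interferon gamma response and for factors of the class II promoter, 1 point per library. The 18 induced genes drawn, those with enough UMIs, lie above 2 in every library, whereas the promoter factors lie near 1.

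The same lists were set beside the class II genes in the fit of all melanoma cells. Of the 20 induced genes 16 rose and 0 fell under the label shMib2, at a median log2 fold change of 1.79. Psmb8 had 18.8 and 19.3 CPM in the libraries labelled shMib2 and 1.51 CPM in the library labelled shCtrl, Gbp4 7.09 and 9.12 against 0.776 CPM, Gbp5 0.591 and 0.700 against 0.0633 CPM, and Iigp1, an immunity-related GTPase, 20.3 and 21.8 against 2.49 CPM. Their edgeR adjusted p-values were between 0.00317 and 0.0355. Of 10 genes of the receptor and its signaling 3 rose, among them Irf1 (9.59 and 11.6 against 3.60 CPM) and the feedback inhibitor Socs3 (16.8 and 15.8 against 10.4 CPM). With predicted doublets left out, 11 of 48 genes of the pathway and the response passed in place of 19 of 50, and Irf1, Socs3 and Gbp5 were no longer called (edgeR adjusted p of 0.155, 0.0657 and 0.102) at log2 fold changes of 1.45, 0.55 and 3.27, against 1.51, 0.60 and 3.29 with all cells. Calls were fewer over all genes in that fit, 26 of 15731 (0.165%) higher.

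The rest of the class II machinery did not pass in melanoma cells. Of all 16196 genes tested, 1.60% were called higher and 1 gene lower, so 0 calls in lists this short do not set them apart from other genes. Of the 7 promoter factors 0 were called (median log2 fold change -0.01), with 1 at an unadjusted p under 0.05 in edgeR, the NF-Y subunit Nfyb at 38.1 and 36.4 against 41.5 CPM. Rfxap, an RFX subunit, had 59.5 and 59.2 against 60.6 CPM. Of 7 proteases and reductases that cut and reduce the engulfed proteins 0 were called (median -0.03) and 1 had an unadjusted p under 0.05. Among them Ctsd had 455 and 434 against 438 CPM and Ctsb 239 and 234 against 215 CPM. Ctss, a protease of antigen-presenting cells named here after its values were seen, had 0.697 and 1.06 against 0.114 CPM (log2 fold change 2.90, edgeR adjusted p = 0.0798). The 2 measured DO genes, which restrain H2-DM in B cells, were not called, with 12 and 20 against 24 UMIs of H2-Oa and 10 and 16 against 2 UMIs of H2-Ob, which had an unadjusted p of 0.0207 and an adjusted p of 0.193 in edgeR. Of the 4 turnover and costimulation genes tested 0 were called, with 2 at an unadjusted p under 0.05 in edgeR. March8, a ubiquitin ligase, had 16.6 CPM in each library labelled shMib2 against 15.4 CPM, and the costimulatory gene Cd80 0.251 and 0.222 against 0.194 CPM. The 2 others tested, Cd83 and Cd86, are known from activated antigen-presenting cells and had 27 and 40 against 10 UMIs and 10 and 21 against 2 UMIs (edgeR adjusted p = 0.164 and 0.210). For the receptors that bind class II, 0 of 2 were called (0 at an unadjusted p under 0.05 in edgeR). Lag3 had 1.83 and 1.53 against 1.57 CPM and Cd4 7 and 14 against 4 UMIs.

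Markers of leukocytes and stroma moved with the class II genes in melanoma cells. Of 27 such markers, 24 were tested and 7 rose, where 1.60% of all 16196 genes were called higher. The 24 had a median log2 fold change of 1.99, against 0.01 for all genes. The 7 were Col3a1 and Col1a1, collagen genes of fibroblasts, Tyrobp, Ptprc, Cd52 and Laptm5 of leukocytes, and Cd3d of T cells. Ptprc, which encodes CD45, had 1.26 and 1.83 CPM in the libraries labelled shMib2 and 0.105 CPM in the library labelled shCtrl, Tyrobp 1.49 and 2.02 against 0.0844 CPM, Col3a1 67.2 and 45.8 against 2.26 CPM and Col1a1 42.3 and 27.9 against 2.63 CPM. Without predicted doublets none of these 4 was called, in a fit where 0.165% of all genes were called higher. The log2 fold changes were then 3.46 for Ptprc, 3.11 for Tyrobp, 2.95 for Col3a1 and 1.85 for Col1a1. With all cells they were 3.82, 4.32, 4.59 and 3.68. The 27 markers summed to 140 and 111 against 22.9 CPM, and all 27 had UMIs in the libraries labelled shMib2, while Flt3, Clec9a, Itgax, Ncr1 and Siglech were at 0 in the library labelled shCtrl.

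Cells that held the class II genes without leukocyte markers were set apart. Of the 27 markers 21 are restricted to leukocytes, a choice made after seeing the data, and 82.7% and 68.2% of the cells with several genes in the libraries labelled shMib2 and 93.2% in the library labelled shCtrl held no UMI of them. Among cells with none of the class II genes the shares without a restricted marker were larger, 91.0% and 81.1% against 97.2%. The restricted markers summed to 35.2 and 56.6 against 5.77 CPM in cells with several genes and to 8.94 and 11.6 against 1.35 CPM in cells with none, so they were higher in cells with several genes of every library. The Cd74 level of the cells with several genes and no restricted marker was 338 and 266 against 169 CPM, and their interferon gamma-induced genes had medians of 27.9 and 22.7 against 23.7 UMIs per 10000. With all melanoma cells that held a restricted marker left out, the log2 fold change of Cd74 was 3.42 (edgeR adjusted p = 0.000402; 6.86e-269 to 0.369 over the 13 alternatives, the last without the filter on low counts) and 6 of 8 genes were called. With every cell that held any of the 27 markers left out it was 3.36 and 5 of 8 were called. Of all genes in these fits, 1.82% of 15788 and 0.295% of 14235 were called higher, in this order. Ptprc UMIs were found in 18 of 508 and 34 of 403 against 1 of 73 cells with several genes. Predicted doublets made up 15.0% and 19.6% against 17.8% of the cells with several genes, and 6.43% and 6.13% against 6.42% of the cells with none. Without them several genes were held by 7.19% and 9.01% against 0.801% of melanoma cells.

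Outside the melanoma cells the order of the classes was that of antigen-presenting cells. Cd74 was highest in conventional dendritic cell-like cells, with 17112 and 16434 against 24690 CPM, from 38, 45 and only 2 cells. B cell-like cells had 12091 and 13053 against 13708 CPM (77, 126 and 62 cells), mononuclear phagocyte-like cells 7340 and 7121 against 5108 CPM (110, 220 and 10 cells) and plasmacytoid dendritic cell-like cells 2808 and 4346 against 6961 CPM (16, 23 and 10 cells). The order of the first 3 held in every library, whereas phagocyte-like and plasmacytoid dendritic cell-like cells changed places in the library labelled shCtrl. In the cells with several genes, Cd74 was lower than in any of these classes of the same library. At least 3 of the genes were found in 90.9% and 97.6% against 100% of B cell-like cells, in 52.7% and 50.9% against 40.0% of phagocyte-like cells and in 62.5% and 82.6% against 90.0% of plasmacytoid dendritic cell-like cells. All 38 and 40 of 45 conventional dendritic cell-like cells held several, as did both cells of the library labelled shCtrl.

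Ciita followed the same classes, with 164 and 189 against 296 CPM in conventional dendritic cell-like cells, 59.9 and 92.2 against 79.7 CPM in B cell-like cells and 48.8 and 52.1 CPM in phagocyte-like cells of the libraries labelled shMib2. In the last class 0 UMIs were found in the 10 cells of the library labelled shCtrl. The conventional dendritic cell-like class was made of a cluster with Wdfy4 (32, 29 and 2 cells) and a cluster led by Ccr7 (6, 16 and 0 cells), which is known from migrating dendritic cells. In the libraries labelled shMib2 the cluster led by Ccr7 had 0 and 118 CPM of H2-DMb1, 115 and 202 CPM of H2-DMa and 38.2 and 135 CPM of Ciita. The cluster with Wdfy4 had 989 and 906 CPM of H2-DMb1, 866 and 1104 CPM of H2-DMa and 182 and 202 CPM of Ciita. Cd74 in the cluster led by Ccr7 was at 14434 and 6999 CPM, against 17487 and 18791 CPM in the cluster with Wdfy4. The genes of the exchange factor were thus lower in the cluster led by Ccr7 in both libraries, from few cells, as was Cd74 to a lesser degree; for Ciita the intervals of the clusters overlapped in both libraries.

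The H2-DMb copies divided the classes, in UMIs not scaled by length. In B cell-like cells H2-DMb2 gave 23 and 65 against 27 UMIs and H2-DMb1 8 and 16 against 2 UMIs. In conventional dendritic cell-like cells H2-DMb2 gave 14 and 20 against 1 UMIs and H2-DMb1 185 and 222 against 13 UMIs, and in phagocyte-like cells 7 and 16 against 0 UMIs of H2-DMb2 stood beside 109 and 339 against 8 UMIs of H2-DMb1. Melanoma cells resembled the dendritic and phagocyte-like cells, with 26 and 29 against 16 UMIs of H2-DMb2 beside 3027 and 2865 against 2879 UMIs of H2-DMb1. The excess of H2-DMb1 over H2-DMb2 was thus turned round only in B cell-like cells among these 4 kinds of cells, in every library. In the cells with several genes H2-DMb1 took a larger part of the UMIs of the 8 genes, 9.45% and 9.52% against 11.8%, than in conventional dendritic cell-like cells (2.16% and 1.98% against 3.71%) or B cell-like cells (0.545% and 0.358% against 0.149%). The cells with several genes were chosen by UMIs of the same 8 genes, H2-DMb1 among them, whereas the classes were not. Their parts are therefore a description. Cd74 took 49.1% and 48.3% against 44.2% in the cells with several genes. It took 47.8% and 46.6% against 50.7% in phagocyte-like cells and 42.6% and 43.4% against 47.7% in conventional dendritic cell-like cells. In T cell-like cells it took 51.5% and 46.7% against 55.9%, so its part differed little between these kinds of cells. Elsewhere it differed more. Under shMib2 it was 25.4% and 27.1% in fibroblast-like cells and 9.43% and 26.5% in mural cell-like cells. In all melanoma cells together it was 43.2% and 42.7% against 16.2%.

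**Figure D5:**
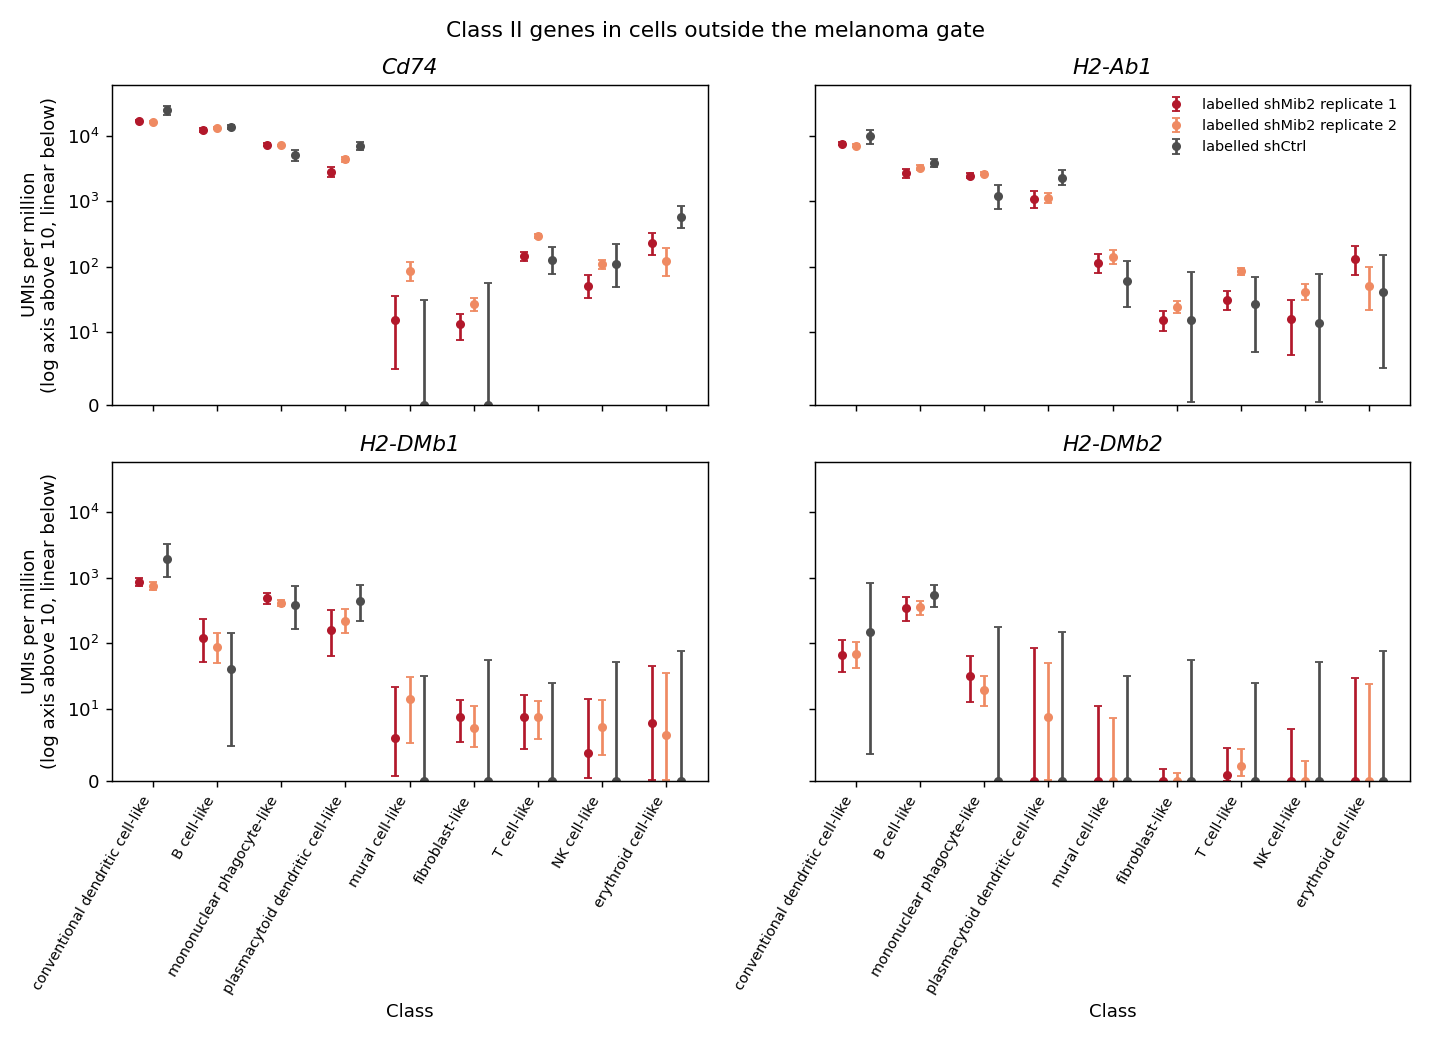
CPM of 4 class II genes (log axis above 10, linear below) in the named classes of cells outside the melanoma gate, 1 point per library with exact Poisson 95% intervals for counting error only. Cd74 and H2-Ab1 are highest in the antigen-presenting classes, mural cell-like cells show H2-Ab1 at 114, 141 and 59.1 with less Cd74, and H2-DMb2 exceeds H2-DMb1 in B cell-like cells alone.

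Stromal cells held few of the class II UMIs. Fibroblast-like cells had 13.2 and 26.4 CPM of Cd74 in the libraries labelled shMib2 and 0 in 5 cells of the library labelled shCtrl. Several genes were found in 2.37% and 8.26% of them at medians of 8133 and 13575 UMIs, and in 0% and 0.926% at 1000 UMIs. Mural cell-like cells, a cluster led by Acta2, Tagln and Tnc that rests on 3 of 6 markers, had H2-Ab1 without its partner. H2-Ab1 UMIs were found in 38.1% and 35.6% against 29.4% of these cells (114 and 141 against 59.1 CPM), whereas H2-Aa had 1 and 4 against 0 UMIs and Cd74 15.0 and 84.8 against 0 CPM. The library labelled shCtrl held 17 such cells. Endothelial cell-like cells (16, 30 and 1 cells, medians of 749 and 1819 UMIs under shMib2) had 1 and 67 against 0 UMIs of Cd74, and the 67 UMIs of replicate 2 lay in 5 cells. Of the UMIs of all 8 genes in the libraries labelled shMib2, fibroblast-like and mural cell-like cells held small parts, with 0.385% and 0.655% in the fibroblast-like and 0.173% and 0.278% in the mural cell-like cells.

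Between the labels, the class II genes were tested in the classes with at least 20 cells in every library. In B cell-like cells 0 of 6 tested were called (0.0945% of all 1058 genes were), with 1 at an unadjusted p under 0.05 in edgeR. A count of 0 calls does not show equal levels, here or in the other classes. There H2-Aa had 3296 and 3655 against 3427 CPM and H2-Ab1 2652 and 3259 against 3865 CPM. In T cell-like cells 0 of 6 were called (0.733% of all genes), in NK cell-like cells 0 of 5 (0.190%) and in erythroid cell-like cells 0 of 4 (0.397%), with 0, 0 and 1 at an unadjusted p under 0.05. In melanoma-like cells outside the gate, which had lower depth or less Dct and Pmel, 2 of 6 rose, where 0.366% of all genes were called. Cd74 had 58.9 and 59.5 CPM in the libraries labelled shMib2 and 13.7 CPM in the library labelled shCtrl (log2 fold change 2.09, SE 0.22, edgeR adjusted p = 7.06e-11). H2-Aa had 49 and 40 against 2 UMIs, a call (edgeR adjusted p = 1.79e-06) that was lost with DESeq2 (adjusted p = 0.609) and at a clustering resolution of 0.5 (edgeR adjusted p = 0.0732). The classes with few cells in the library labelled shCtrl, dendritic, phagocyte-like and stromal, were not tested.

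The genes whose levels over 28 sums by class and library were most like the 8 genes summed were March1 (Pearson r = 0.935), a ubiquitin ligase that removes class II molecules from the surface, Themis2 (0.918), Wdfy4 (0.916), Btk (0.915), Cd180 (0.910) and Rnase6 (0.910). Btk is the kinase of B cell receptor signaling and Wdfy4 is needed for cross-presentation by dendritic cells. The sums share libraries and differ in depth, and the 6 genes had 93 to 403 UMIs in them, so these values describe the order of the classes. Among the 8 genes themselves H2-Eb1 was most like the sum of the other 7 (0.988) and H2-DMb1 least (0.699).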

How the data were processed

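The authors deposited raw counts of UMIs per gene and cell barcode, unnormalized, for cells called before deposition; per the labels, Cell Ranger 4.0.0 and mm10 were used. The labels name a V(D)J kit. No depth was equalized between libraries, which held 190904274, 203298455 and 243926188 UMIs (shMib2 replicate 1, shMib2 replicate 2 and shCtrl).

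The class II genes, gene lists, markers and tests were chosen with earlier results of these data known, and the rule for naming clusters was set after seeing them. Barcodes with at least 5000 UMIs and at least 0.5% Dct and Pmel were melanoma cells, predicted doublets included. Others were kept from 200 genes up and if mitochondrial UMIs did not exceed 20%, and doublets scored against simulated ones (0.8% for every 1000 barcodes) were removed. Leiden clustering (resolution 1, 20 neighbors, 30 components of 2000 variable genes) left out the class II genes. UMIs were summed per library and class with at least 20 cells in each library, normalized by TMM and filtered by filterByExpr. The main test was the quasi-likelihood test of edgeR, adjusted after Benjamini and Hochberg at 0.05 and 1 residual degree of freedom, tried on simulated data; DESeq2, other gates, filters and resolutions were alternatives. Intervals cover counting error only, shares have Wilson and levels exact Poisson 95% intervals.

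Named were all 8 genes and, per list, up to 4 called genes with the largest change, or else the 2 with the most UMIs; the 6 genes most like the sum of the 8 (log2 of CPM + 1, Pearson, at least 50 UMIs); and the 12 genes with the largest smallest ratio of cells with several genes over cells with none (at least 10 UMIs per library). Other genes were named after their values were seen. A listed signaling gene is not reported here. Annotation was GENCODE vM21; promoters were RefSeq's. Tools were R 4.3.3, edgeR 4.0.16, limma 3.58.1, DESeq2 1.42.0, Python 3.11.15, scanpy 1.11.5, leidenalg 0.10.2 and scikit-learn 1.9.0.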

Additional observations from a re-analysis of the deposited data

Results flagged for a closer look

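In 3 flagged cases a class II gene that rose in melanoma cells under the label shMib2 lay on the other side in another class, in each library labelled shMib2. The flag also asked for enough UMIs in every library. The log2 fold change had to stay negative with either library labelled shMib2 left out. Cd74 in erythroid cell-like cells had 226 and 121 CPM in the libraries labelled shMib2 and 578 CPM in the library labelled shCtrl (log2 fold change -1.51), from 28 and 19 against 28 UMIs. H2-DMa in B cell-like cells had 345 and 439 against 618 CPM (-0.63), and H2-Eb1 in B cell-like cells 3087 and 3308 against 4483 CPM (-0.50). None of the 3 was called by edgeR in its class, and the difference between the classes was not tested. With doublets kept, Cd74 in erythroid cell-like cells was called lower (log2 fold change -1.74, edgeR adjusted p = 0.0246). Cases on the same side that did not meet every condition included Cd74 (12091 and 13053 against 13708 CPM) and H2-Ab1 (2652 and 3259 against 3865 CPM) in B cell-like cells. H2-Aa and H2-Eb1 in erythroid cell-like cells, from few UMIs, were others.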

How the results depend on the processing

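The 6 called genes kept their direction under all 13 alternatives each, with log2 fold changes of 3.36 to 3.51 for Cd74, 3.78 to 4.14 for H2-Aa, 3.26 to 3.53 for H2-Ab1, 3.11 to 4.20 for H2-Eb1, 1.44 to 1.57 for H2-DMa and 2.89 to 4.71 for Ciita. With no filter on low counts 0 of the 8 genes and 0 of the pathway and response genes were called, against 6 and 19, a fit that tests more genes; all 5 genes other than Ciita lost their call only there. Leaving out predicted doublets gave 11 pathway and response genes in place of 19; the cause was not tested. In the other classes 2 calls became 1 with DESeq2 and 1 at a resolution of 0.5. The ratio of cells with several genes was 9.98, and 5.51 with at least 2 genes or 12.1 with at least 4; leaving out a library labelled shMib2 gave 8.60 to 11.4. Signs turned for 3 uncalled values: H2-DMa in NK cell-like cells (log2 fold change -0.07, and 0.10 without the filter or 0.04 with doublets kept), Ctsd (-0.03, and 0.05 without cells that hold a marker) and Lag3 (0.05, and -0.03 without doublets). Of the other values for single genes, 439 were unchanged, 32 lost a call and 3 gained one. Unchanged values kept their call or lack of it. With a library left out, unchanged values were those whose log2 fold change moved by less than its SE, and 15 such values moved by more. Leaving out a library leaves 1 against 1, so such values have no test. No paired analysis was possible because the library labelled shCtrl is alone and has no replicate number. The main limits are the single library labelled shCtrl, Mib2 RNA that does not follow the labels, and few dendritic cells and phagocytes under shCtrl.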

Other observations

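Barcodes that were in no named class held few class II UMIs. Clusters without a name had 300 and 1056 barcodes in the libraries labelled shMib2 and 265 in the library labelled shCtrl, and held 343 and 794 against 19 UMIs of the 8 genes. Barcodes left out by the filter or as predicted doublets numbered 895 and 1177 against 733 and held 403 and 432 against 38 UMIs.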
